A study of Mus musculus with 3 samples.

Results

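PAM (Gm12603) is a nuclear RNA transcribed from a super-enhancer on mouse chromosome 4, and its chromatin contacts were mapped by ChIRP-seq (chromatin isolation by RNA purification and sequencing) with 2 pools of biotinylated antisense probes, called odd and even. The even pool gave 345 regions and the odd pool gave 2112. The subject here is the 221 even-pool regions that the odd pool did not match. They were selected on the coordinates of the 2 lists alone: a region is unmatched where no odd-pool region covers at least 50% of it while also having at least 50% of its own width covered. These 221 regions are 64.1% of the even-pool list, and the other 124 even-pool regions are called matched. Because the rule uses those coordinates, the share itself and the distance of a member from the odd-pool list describe the selection and are not findings.

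The cells were activated satellite cells (ASC), the cultured progeny of muscle stem cells. Satellite cells were sorted by FACS (fluorescence-activated cell sorting) from hindlimb muscle of Tg:Pax7-nGFP mice, in which a nuclear green fluorescent protein marks cells that use the Pax7 promoter, and were then grown with basic FGF. No further treatment or genetic change was given for either pool, and the age of the mice was not given in the sources used here. Each pool had 10000000 cells fixed in 1% glutaraldehyde for 10 min, 100 pmol of probes and 4 h of hybridization at 37 °C, and each pool is 1 library without replicates. An input library belongs to the series and its values were not analysed here. Differences between the pools therefore have no replicate check, no p-value is given, and the 95% Wilson intervals printed with shares cover counting error only. The read depth behind each list is unknown.

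An enhancer RNA can stay near its site of transcription or reach other loci, and ChIRP asks which DNA it touches by fixing the chromatin, hybridizing short probes to the RNA and sequencing the DNA that comes down with it. A probe can also pair with other nucleic acid that resembles its target, which is why such experiments divide the probes into separate pools and keep the loci that both retrieve. Regions that 1 pool retrieves and the other does not are therefore usually set aside. The results below describe what those regions were in the even pool.

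The 6 probes, as listed by the study 5′ to 3′, are shown because stretches of them recur in the members. Which probes make up which pool is not spelled out in the sources used here. Reading the pool names as probe numbers would put probes 2, 4 and 6 in the even pool.
Probe 1: GCCAGAAAGAATGGATGACT
Probe 2: GCATTTTCAGTGGGATCACA
Probe 3: ACCTGCCATCTGCTATCAAA
Probe 4: TCTTCACAAACCCTCATGAT
Probe 5: ACAAGTACTTCAGCTCCATG
Probe 6: GTTCTGATATGTAAGCTCCT

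Members are printed in mm9 (NCBIM37), plus strand, with coordinates as deposited. The printed bases start at the base after the first coordinate. Of the highest-scoring members, those of Fn1, Sparc and the end of Actb lie in untranslated sequence and are given by position only. The Gm10801 member at chr2:98502418-98502666 is shown as the highest-scoring one in a gene without an odd-pool region. Members in introns of Itgb3 (chr11:104485627-104485875) and Tcta (chr9:108207360-108207608) are shown as examples of the highest-scoring single-copy ones outside untranslated sequence in genes without an odd-pool region.
Gm10801: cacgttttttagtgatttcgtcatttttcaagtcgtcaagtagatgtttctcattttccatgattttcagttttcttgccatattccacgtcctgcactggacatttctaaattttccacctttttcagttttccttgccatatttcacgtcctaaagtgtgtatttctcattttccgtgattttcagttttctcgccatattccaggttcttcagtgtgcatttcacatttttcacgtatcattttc
Itgb3: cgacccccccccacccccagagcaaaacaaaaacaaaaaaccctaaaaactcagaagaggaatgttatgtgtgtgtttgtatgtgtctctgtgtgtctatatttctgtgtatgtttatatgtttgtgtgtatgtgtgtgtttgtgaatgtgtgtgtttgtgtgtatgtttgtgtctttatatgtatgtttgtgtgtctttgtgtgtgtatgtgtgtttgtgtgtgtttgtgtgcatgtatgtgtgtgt
Tcta: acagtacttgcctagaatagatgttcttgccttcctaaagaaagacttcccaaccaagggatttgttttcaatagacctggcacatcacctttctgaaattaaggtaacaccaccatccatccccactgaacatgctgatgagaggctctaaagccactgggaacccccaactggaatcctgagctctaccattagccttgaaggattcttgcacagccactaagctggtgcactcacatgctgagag

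The last pair of regions was chosen after the values were seen. The intergenic region at chr5:118915186-118915434 had the highest score of all members far from any odd-pool region, and its capitals mark 10 bases that are the reverse complement of bases 4 to 13 of probe 4. That region was also rich in short TG and GA runs, which are not marked. The intergenic region at chr8:43370898-43371146 had the next highest score, and its capitals mark an uninterrupted CA repeat of 69 bp.
Chromosome 5 region: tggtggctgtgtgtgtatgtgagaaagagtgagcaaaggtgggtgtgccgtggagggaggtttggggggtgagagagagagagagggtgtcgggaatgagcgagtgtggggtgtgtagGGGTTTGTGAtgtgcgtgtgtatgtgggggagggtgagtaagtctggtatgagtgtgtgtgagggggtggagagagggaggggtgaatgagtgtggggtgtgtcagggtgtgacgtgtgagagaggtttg
Chromosome 8 region: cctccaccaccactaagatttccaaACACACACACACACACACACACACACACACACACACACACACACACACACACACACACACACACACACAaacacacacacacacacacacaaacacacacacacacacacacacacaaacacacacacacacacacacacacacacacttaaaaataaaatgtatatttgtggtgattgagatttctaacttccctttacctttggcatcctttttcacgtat

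The members were grouped by their position relative to the odd-pool list. Of the 221, 23 overlapped an odd-pool region by less than the rule required (5 to 126 bp, median 86 bp of a width of 248 bp), 61 lay without overlap in a gene that held an odd-pool region, and 6 more lay within 20000 bp of one. These 90 are called neighbouring below. The group is set by the shared gene as well as by distance, so it also holds members far from any odd-pool region, up to 673784 bp away in the long gene Pde4d. The other 131 were isolated, with the nearest odd-pool region 20349 to 4963774 bp away (median 435229 bp) and none in the gene to which the member was assigned. A member with its midpoint in an exon was assigned only to genes with an exon there. Over all members, 68 overlapped or lay within 1000 bp of an odd-pool region, 12 lay farther than that but within 10000 bp, 31 lay beyond that but within 100000 bp, and 110 lay farther still.

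**Figure D1:**
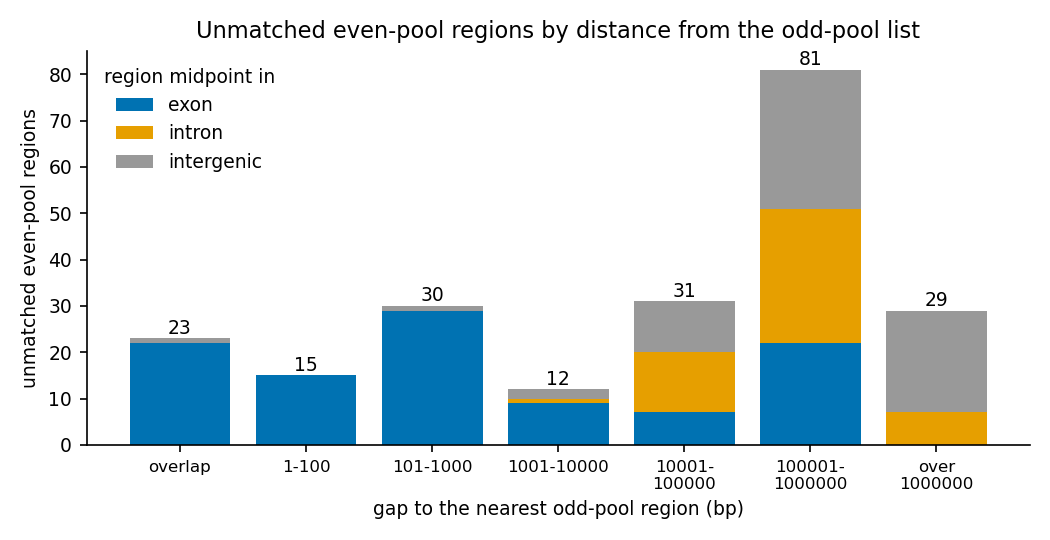
Number of unmatched even-pool regions (y axis) by the gap to the nearest odd-pool region in bp (x axis, unequal steps), coloured by whether the region's midpoint lies in an exon, an intron or between genes. Of the 68 members that overlapped or lay within 1000 bp of an odd-pool region 66 were exonic, and of the 110 beyond 100000 bp 22 were.

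The place of the members in genes is described with the grouping in view: most neighbouring members are in that group because they share a gene with an odd-pool region, and the odd-pool list is itself mostly exonic, so the contrast between the groups in part restates how they were formed. In GENCODE annotation of mm9, 77 of the 90 neighbouring members had their midpoint in an exon (85.6%, 95% interval 76.8 to 91.4%), of which 51 were in 3′ untranslated regions and 23 in coding sequence. Of the 131 isolated members, 27 were exonic (20.6%, 14.6 to 28.3%), 42 intronic (32.1%) and 62 intergenic (47.3%). Matched even-pool regions were exonic in 75.8% of cases and odd-pool regions in 79.5%, and of all 248-bp windows of mm9 3.4% were. Taking all members as 1 group gives 104 exonic (47.1%), 50 intronic (22.6%) and 67 intergenic (30.3%).

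**Figure D2:**
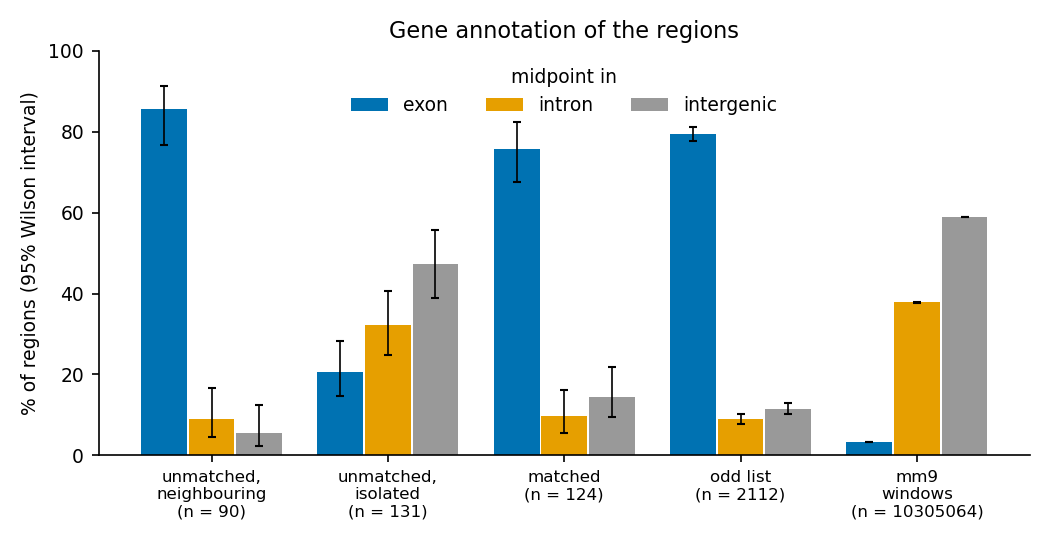
Share of regions in % (y axis, bars with 95% Wilson intervals for counting error) whose midpoint lies in an exon, an intron or between genes, for neighbouring, isolated and matched even-pool regions, the odd-pool list and all 248-bp windows of mm9. Neighbouring members stood at 85.6% exonic and isolated members at 20.6%, a contrast that the grouping by odd-pool position in part sets, and matched regions stood at 75.8%.

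Each deposited region carries a whole-number score of 4 or more, whose meaning is not named in the sources used here, and the scores of the pools may not be on the same scale. Isolated members sat at the bottom of this range. Of the 131, 104 had a score of 4, 21 a score of 5, 4 a score of 6, 1 a score of 7 and 1 a score of 8. Neighbouring members had a score of 4 in 34 of 90 cases, a median of 5 and a highest score of 25. Matched regions ran from 4 to 68 with a median of 7, and 20 of 124 had a score of 4. Thus 79.4% (71.7 to 85.4%) of isolated members, 37.8% (28.5 to 48.1%) of neighbouring members and 16.1% (10.7 to 23.6%) of matched regions were at the lowest score in the list. All 15 members with a score of 9 or more were neighbouring.

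**Figure D3:**
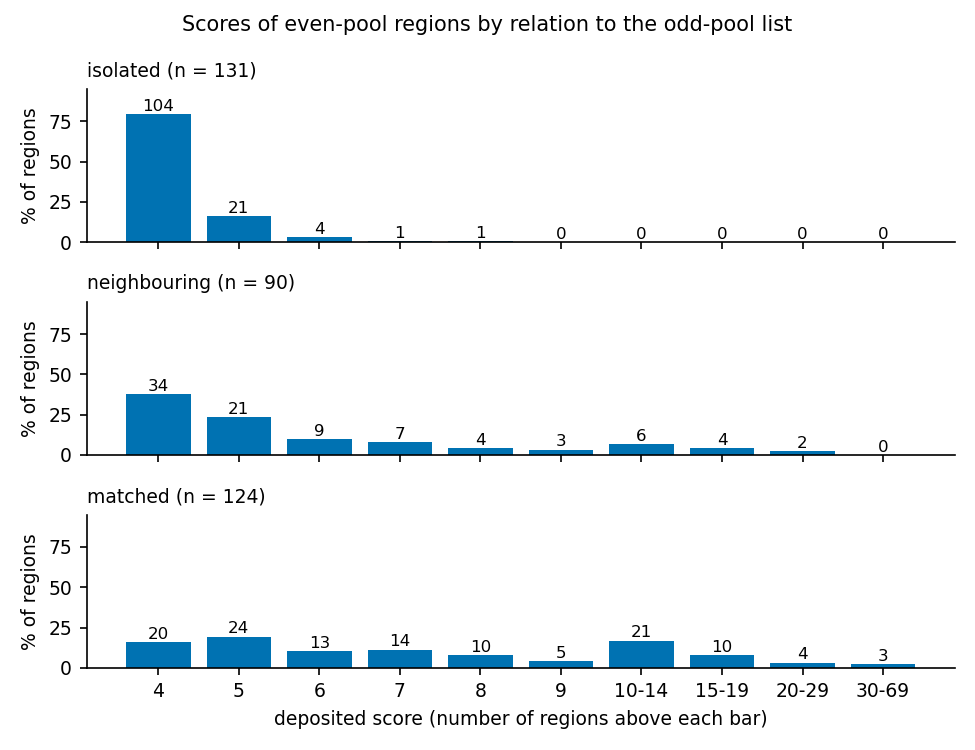
Share of regions in % (y axis) at each deposited score (x axis, scores of 10 and over grouped), with the number of regions above each bar, for isolated members, neighbouring members and matched even-pool regions. Isolated members stopped at a score of 8, and 104 of 131 had a score of 4.

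Of the 10 highest-scoring members, 7 were in the matrix and cytoskeletal genes Fn1, Sparc, Actb, Bgn, Timp2 and Col1a2, each of which also held an odd-pool region of higher score. Fibronectin (Fn1), an adhesive glycoprotein of the extracellular matrix, held the highest member, with a score of 25 at chr1:71632395-71632643 in exon 46 of 46. That region lay in the 3′ untranslated region and shared 17 bp with an odd-pool region of score 81. Fn1 held 2 further members in coding exons, with scores of 6 (exon 14) and 5 (exon 6), beside 7 matched regions and 26 odd-pool regions along the gene. Both pools thus retrieved Fn1, at many sites along it.

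Sparc, a collagen-binding matrix protein, had a member of score 22 at chr11:55208106-55208354 in its last exon, 8 bp from an odd-pool region of score 72. Actb, the nonmuscle beta-actin of the cytoskeleton, had members of score 18 in the 3′ untranslated region (chr5:143664888-143665136, 220 bp from an odd-pool region) and score 18 in coding exon 5, where 106 bp were shared with an odd-pool region. The highest odd-pool score in Actb was 66. The coding member of Actb is in sequence whose 31-base words occur 2 times in the genome at the median. The authors kept uniquely mapping reads only, and the source of the reads at this member was not tested.

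Biglycan (Bgn), a small proteoglycan of the matrix, had members of score 15 and 9 in its last exon, 21 and 108 bp from an odd-pool region of score 41. Timp2, an inhibitor of matrix metalloproteinases, had a member of score 13 in the 3′ untranslated region (chr11:118163403-118163651), 70 bp from its only odd-pool region, of score 31. Col1a2, a chain of type I collagen, had a member of score 11 sharing 116 bp with an odd-pool region of score 38. In each of these genes the member thus lay beside or partly over an odd-pool region of higher score.

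Cdkn1a, which encodes the cell cycle inhibitor p21, had a member of score 11 in exon 3 of 3, 218 bp from an odd-pool region of score 24. The 10 highest members were completed by Gm10801 (score 15) and an intergenic region of score 14 at chr2:98505164-98505412, both in a predicted-gene cluster on chromosome 2. The words of these regions occur 2 and 4 times in the genome at the median. The nearest odd-pool region, of score 67, was 4495 bp from the Gm10801 member and 1749 bp from the intergenic one.

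Genes with more than 1 member were few. There were 8 in all, among them Fn1, Actb, Bgn, Calu, Ctnnb1, Hsp90b1 and P4ha1, with 2 members each except Fn1. Calu encodes a calcium-binding protein of the secretory pathway and had members of score 6 and 5 on either side of its 1 odd-pool region, 194 and 19 bp away. Ctnnb1 encodes beta-catenin, which links cadherins to actin and carries Wnt signals, and had a member of score 4 in exon 4 and another of score 4 in exon 15, 4188 and 3957 bp from its odd-pool region of score 9.

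Hsp90b1, a chaperone of the endoplasmic reticulum, had members of score 5 and 4 in coding exons 5 and 12. P4ha1, a subunit of the enzyme that hydroxylates proline in collagen, had members of score 4 in a coding exon and in the 3′ untranslated region and had no odd-pool region. The even pool thus retrieved P4ha1 at more than 1 site and the odd pool at none.

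In all, 148 annotated genes held a member, which is 0.397% of the 37252 genes annotated, and 78 of these also held an odd-pool region, where 4.32% of all annotated genes did. In the 78 genes the highest member score had a median of 5 and the highest odd-pool score a median of 12. The odd-pool score was the higher in 72, equal in 4 and lower in 2, Cenpb (7 against 6) and Gm16869 (6 against 4). Cenpb encodes a protein that binds centromeric satellite DNA, and Gm16869 is a predicted gene whose member is in sequence repeated 29 times at the median. The same input library may lie behind both lists, and how it was used in peak calling is not stated in the sources used here.

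**Figure D4:**
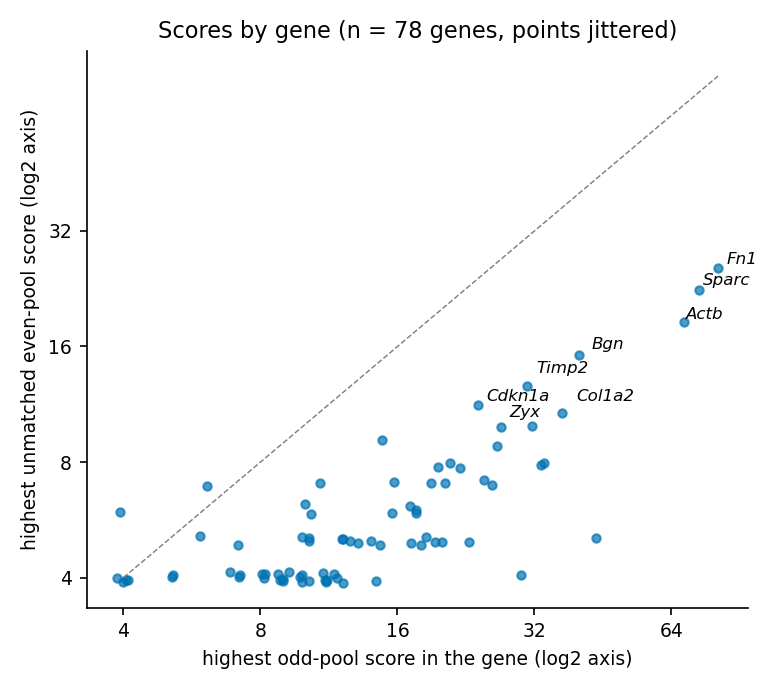
Highest unmatched even-pool score (y axis, log2) against highest odd-pool score (x axis, log2) for the 78 genes that hold both, 1 point per gene with slight jitter and the line of equal scores dashed. The odd-pool score was the higher in 72 genes, and the genes with the highest member scores, Fn1 (25 against 81) and Sparc (22 against 72), were also high in the odd pool.

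Members in matrix and cytoskeletal genes were nearly all in genes that the odd pool also retrieved. Of 56 annotated matrix genes 10 held a member (17.9%, beside 0.397% of all genes), and 32 held an odd-pool region (57.1%, beside 4.32%). Besides those above they were Nid1 (score 6), which bridges laminin and collagen IV in the basement membrane, Thbs1, Col1a1, Col4a2 and Col12a1 (each score 4). Col12a1, a collagen that sits on type I fibrils, was the 1 matrix gene with a member and no odd-pool region, and its member lay in exon 66 of 66. These lists were drawn up with earlier results of these data known, so the counts are descriptive.

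Of 46 cytoskeletal genes 8 held a member (17.4%, beside 0.397% of all genes) and 34 an odd-pool region (73.9%, beside 4.32%). Tubb5, a beta-tubulin, had a member of score 10 in exon 4 of 4, 88 bp from an odd-pool region of score 31. Zyx, a focal adhesion protein, had a member of score 10 in coding exon 5 that shared 20 bp with an odd-pool region of score 18. Tpm1, a tropomyosin that lies along actin filaments, had a member of score 6 in its last exon.

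Of 20 adhesion genes, Ctnnb1 and Itga7 held a member (10%, beside 0.397% of all genes). Itga7, the laminin-binding integrin chain of muscle cells, had a member of score 5 in exon 1 that shared 99 bp with an odd-pool region of score 8. Among 22 translation factors the 1 with a member was Eif3c (4.55%; score 4), and among 18 ubiquitin and chaperone genes they were Hsp90b1 and Cct2 (11.1%). No member was found in 16 glycolytic, 14 non-coding RNA or 148 ribosomal protein genes. With 0.397% of all genes holding a member, none is an ordinary outcome for lists of these sizes. An odd-pool region was in 7 (43.8%), 5 (35.7%) and 16 (10.8%) of these genes, beside 4.32% of all genes.

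Of 34 myogenic regulators and muscle proteins, Mef2c held a member (2.94%, beside 0.397% of all genes) and 8 held an odd-pool region (23.5%, beside 4.32%). Mef2c, a transcription factor of muscle differentiation, had a member of score 4 in its first exon, 329010 bp from the nearest odd-pool region. Of 10 satellite cell and myoblast markers, Des (desmin, the intermediate filament of muscle; score 5) and Itga7 held a member (20%) and 6 held an odd-pool region (60%). Of 6 fibroblast markers Col1a2 and Col1a1 held one (33.3%), and 3 held an odd-pool region (50%). The 8 myofibre, 5 endothelial, 5 blood, 4 mural and 3 Schwann cell markers held no member, an ordinary outcome where 0.397% of all genes held one. An odd-pool region was in 3 of the myofibre markers (37.5%) and 2 of the mural ones (50%), beside 4.32% of all genes. The endothelial, blood and Schwann cell markers held none. Region lists give no expression level, so the cell types in the culture were not tested. Of the 15 genes the study names, 4 held a member (Timp2, Itga7, Col4a2 and Ctnnb1), which is 26.7%, beside 0.397% of all genes. A matched region was in 6 of the 15 and an odd-pool region in 11 (73.3%, beside 4.32% of all genes). The study drew some of its genes, Timp2 among them, from its ChIRP-seq data, so these counts are descriptive.

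The 70 genes that held a member and no odd-pool region were mostly at the lowest score. They included 64 protein-coding genes, and in 59 of the 70 the highest member had a score of 4. After Gm10801 (15) came Gm10106, a predicted gene (score 6, in sequence repeated 27 times at the median). It lies within the bounds of Gm16869, a gene that held an odd-pool region. Then came 9 genes at a score of 5. In exons these were Nap1l1, a histone chaperone, Sh3pxd2a, a scaffold of invasive adhesions, Prnp, the prion protein, Ip6k2, an inositol phosphate kinase, and the pseudogene Vcp-rs.

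In introns, the genes at a score of 5 were Itgb3, the beta chain of the vitronectin receptor, Rptor, the scaffold of the mTORC1 kinase complex, Best3, a bestrophin channel, and Tcta. The Itgb3 member printed above was rich in TG runs broken by other bases, and its nearest odd-pool region was 39660 bp away. Best3 was in sequence repeated 3 times at the median. None of these genes had a second member, and a score of 5 is 1 step above the lowest in the list.

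Short tandem repeats were frequent in regions outside exons of either pool. Of the 104 isolated members outside exons, 39 held an uninterrupted tandem stretch of at least 20 bp with a unit of 1 to 6 bases (37.5%, 28.8 to 47.1%), and of all 248-bp windows of mm9 7.59% did. The share was 50% in the 30 matched regions outside exons and 57.3% in the 393 odd-pool regions that lay outside exons and over 20000 bp from any even-pool region, so it was not particular to the members. The unit was CA or TG in 26 of the 104 (25%, 17.7 to 34.1%, beside 2.22% of windows) and GA or TC in 6. The 26 CA or TG stretches were 24 to 155 bp long (median 50 bp), 21 of them were intergenic and 5 intronic, and 19 of the 26 regions had a score of 4. The 27 isolated exonic members held none. This measure was chosen after the sequences were seen.

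CA or TG stretches too were found in the other sets, in 15 of the 30 matched regions outside exons (50%, 33.2 to 66.8%) and in 13.2% of those 393 odd-pool regions. Most matched regions outside exons lay in sequence with repeated 31-base words (22 of 30, 73.3%), against 13 of the 104 isolated members outside exons (12.5%, 7.45 to 20.2%). Of the 26 isolated members with a CA or TG stretch, 7 had words repeated at the median. One isolated member, at chr2:181747444-181747692 with a score of 5, was a TTAGGG repeat, the unit of telomeres, with 1349 copies at the median.

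Stretches of probe 4 recurred in isolated members. A run of at least 10 bases identical to probe 4, on either strand, was in 9 of the 104 isolated members outside exons (8.65%, 4.62 to 15.6%), in none of the 124 matched or 90 neighbouring regions, in 18 of the 2112 odd-pool regions (0.852%) and in 0.597% of mm9 windows. No exonic member of any kind held such a run. Probe 4 was singled out after the counts of all 6 probes were seen, as the one with the most runs in these members. Most matched, neighbouring and odd-pool regions were exonic. Outside exons, 0 of the 30 matched regions held the run (0 to 11.4%), an interval that takes in 8.65%. Of the 393 odd-pool regions outside exons and over 20000 bp from any even-pool region, 0.254% held it (0.0449 to 1.43%). The best alignment to the whole probe is printed below for 8 of the 9, in the orientation of the probe, with bases identical to probe 4 in capitals. Positions of these sites count from 1 and include both ends.
Intergenic, nearest gene Fos, chr12:86841265-86841284, minus strand: TaTTCACAAACCCTttTagT
Sntb1 intron, chr15:55528368-55528387, minus strand: caTgCACAAACCCTCAgaca
Intergenic, nearest gene Nr5a2, chr1:139220396-139220415, minus strand: cCcTCACAAACCCTgAgccc
Intergenic, nearest gene Klf6, chr13:5892774-5892793, plus strand: cCTTCACAAACCaTagTGAa
Rcc1 intron, chr4:131899462-131899481, minus strand: caaTCACAAACCCTgcctcT
Osbpl7 intron, chr11:96927580-96927599, plus strand: agTTCAaAAACCCTCATttc
Intergenic, nearest gene Med13l, chr5:118915298-118915317, minus strand: aCaTCACAAACCCctAcaca
Arntl intron, chr7:120359192-120359211, minus strand: ggcTCACAAACCCcttctcT

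A run of at least 10 bases in a probe of 20 bases must hold base 10 or the base after it. The measure thus favours overlap of the 9 sites near the middle without requiring it. Bases 5 to 13 of probe 4, CACAAACCC, were whole in 6 of them, and the 6 letters AAACCC were in 8. On either strand CACAAACCC was in 7 of the 131 isolated members (5.34%, 2.61 to 10.6%), none of the 90 neighbouring or 124 matched regions, 9 of the 2112 odd-pool regions (0.426%) and 0.269% of mm9 windows. These letters were picked from the sites themselves, so their count in isolated members largely repeats the run measure and is descriptive only. Of the 9 regions, 8 had a score of 4 and the chromosome 5 region printed above had a score of 8. The centres of the sites lay at most 97 bp from the centre of their region, and 4 of the 9 lay within 60 bp. In regions 248 bp wide this is near what even placement would give, so it shows no centring.

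Other probes recurred less. Probe 2 gave runs of 10 or more bases in 2 of the 104 isolated members outside exons and probe 6 in 2, so that probes 2, 4 and 6 together were in 13 (12.5%, 7.45 to 20.2%, beside 1.83% of windows) and probes 1, 3 and 5 in 5 (4.81%, 2.07 to 10.8%, beside 2.81%). Among the 393 odd-pool regions outside exons and far from the even-pool list, the shares were 0.763% for probes 2, 4 and 6 and 3.82% for probes 1, 3 and 5. The longest run in any member was 13 bases, of probe 2, in an intron of Pde4d, a cyclic AMP phosphodiesterase. Runs of 11 bases were also in an isolated member in an Ebf1 intron (probe 1) and in the neighbouring Bgn member of score 9 (probe 3), which are not printed. The Pde4d site and the runs of at least 11 bases of probes 2 and 6 in isolated members are printed in the same way.
Probe 2, Pde4d intron, chr13:110511208-110511227, plus strand: ttcaTTTCAGTGGGATCttg
Probe 2, Intergenic, nearest gene Rps27l, chr9:66793236-66793255, plus strand: aacccgTCAGTGGGATCttt
Probe 6, Intergenic, nearest gene Wap, chr11:6541312-6541331, plus strand: GTgtatATATGTAAGCTCag
Probe 6, Stk32b intron, chr5:38030856-38030875, minus strand: GTTCTGATATGaggttTagg
A run is a description of the letters. Whether any probe paired with these sites was not tested.

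**Figure D5:**
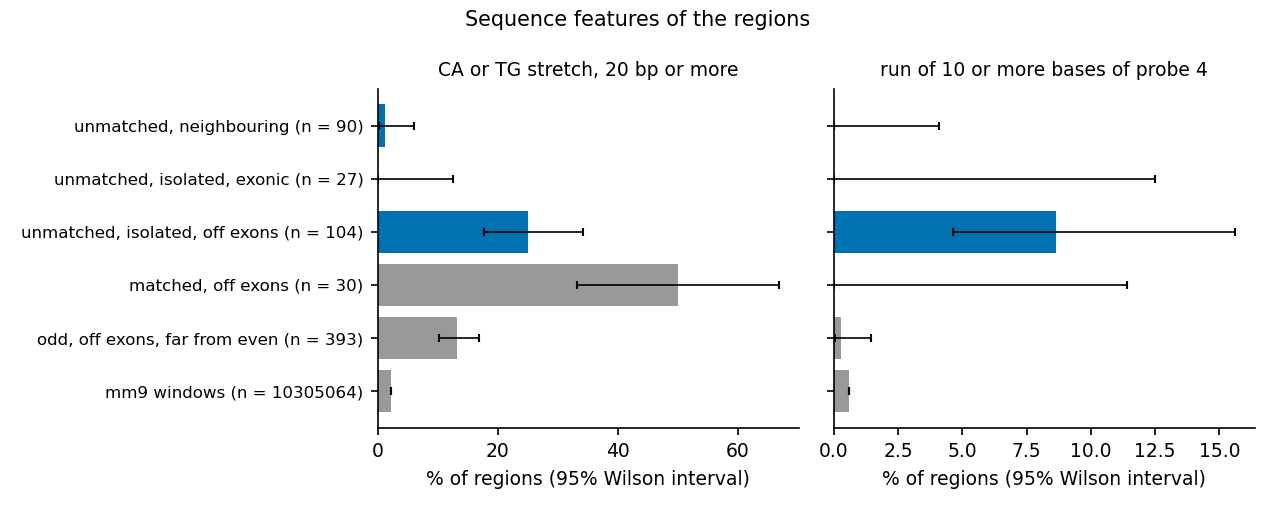
Share of regions in % (x axes, bars with 95% Wilson intervals for counting error) that hold a CA or TG stretch of at least 20 bp (left) or a run of at least 10 bases of probe 4 on either strand (right), for sets of even-pool regions, odd-pool regions outside exons and over 20000 bp from any even-pool region, and mm9 windows. Among isolated members outside exons 25% held the CA or TG stretch and 8.65% the probe 4 run, while matched regions outside exons stood at 50% and 0. The interval of that 0, from 30 regions, reaches 11.4%. Probe 4 is shown because it had the most runs of the 6 probes in isolated members outside exons.

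Chromosome 4, where PAM lies, held 8 of the 221 members (3.62%), beside 3.23% of matched regions, 3.48% of the even-pool list and 5.87% of the odd-pool list. The share was thus near that of the even-pool list as a whole. The nearest to PAM was an intergenic region of score 5 at chr4:94277462-94277710, 5.55 Mb to its right and 3471 bp from Ift74, with a CA or TG stretch of 58 bp. Next came an intergenic region of score 4 at chr4:79533001-79533249, 9.16 Mb to the left. The others were all over 29 Mb away, at Ugcg (29.5 Mb), Gm12446 (42.4 Mb), Rcc1 (43.2 Mb), Cdc42 (48.1 Mb), an intergenic site near Arhgef10l (51.3 Mb) and Rcc2 (51.5 Mb). Ugcg, the first enzyme of glucosylceramide synthesis, and Cdc42, a small GTPase of the actin cytoskeleton, were the 2 with an odd-pool region in the same gene. The Rcc1 intron holds one of the probe 4 sites printed above. None of the members lay at the PAM locus.

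Some members missed the matching rule narrowly. Just inside were regions at Gm13826 (score 5, 126 bp shared, 49.6% of the odd-pool width of 254 bp), Gpc1 (score 8, 121 bp), an intergenic site on chromosome 7 (score 5, 121 bp) and AF085738 (score 8, 119 bp). The AF085738 region also lay in an exon of Gnas, on the opposite strand, and was counted for both genes. Just outside, and so matched, were Serpinh1 (score 5, 128 bp, 50.4%), Acta1 (score 11, 129 bp), Macf1 (score 4, 131 bp) and Gm16869 (score 7, 132 bp). The 5 bp shared at Scd1, a fatty acid desaturase, was the smallest overlap among members.

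Along transcripts, neighbouring members without overlap lay on either side of the odd-pool region. The gap to the nearest odd-pool region in the gene had a median of 218 bp over the 53 exonic ones, from 6 bp at Ly6a, a surface antigen anchored in the membrane, to 13816 bp at Msn, which links actin to the membrane. The member was on the 3′ side in 34 and on the 5′ side in 19. Of exonic members in coding genes with at least 3 exons, 67 of 94 were in the last exon (71.3%), beside 68.9% of such odd-pool regions and 65.3% of such matched ones. The last-exon share of all members together was therefore close to that of the odd-pool list at the precision these counts allow. Of the 94, 72 were neighbouring, with 75% in the last exon (63.9 to 83.6%). The 22 isolated ones had 59.1% in the last exon (38.7 to 76.7%). They had 13.6% in the first exon (4.75 to 33.3%), beside 4.16% of such odd-pool regions.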

How the data were processed

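The deposited lists give chromosome, start, end and a score for each region of the odd and even pools. Before deposit the authors kept uniquely mapping reads (Bowtie2, mm9) and ran MACS2 as peak caller (versions and use of the input not stated). All regions of a list have 1 width (248 bp even, 254 bp odd), and unique mapping limits what repeated sequence can show. Read depth is unknown.

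Regions were matched by an overlap of at least 50% of both, and placed by their midpoint in GENCODE M1 genes on NCBIM37 (mm9). Repeated sequence means that the region's 31-base words occur at least 2 times in the genome at the median. The background is every 248-bp window of chromosomes 1 to 19 and X without unknown bases (10305064). Shares were computed with SciPy 1.17.1 and pandas 2.3.3, and sequence scans with numba 0.67.0 under Python 3.11.15. The measures were tested on simulated data. Probe sequences came from the study's oligonucleotide list.

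With 1 library per pool there is no test. The members and gene lists were chosen with earlier results of these data known. Named were the 10 highest-scoring members, genes with 2 or more members, members in the gene lists, the 10 highest in genes with no odd-pool region, members on chromosome 4 and those nearest the overlap threshold. The tandem repeat and probe measures were added after the sequences were seen. Alternatives changed the overlap, the score minimum, the distance, the gene annotation and the copy number. Some items that the naming rule would give are not reported here.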

Additional observations from a re-analysis of the deposited data

How the results depend on the processing

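Each value of the members was recomputed with 1 choice changed. Of the recomputed values, 30 moved by less than the counting interval or by less than 1.5 times for numbers of regions and genes, and 14 moved further. Keeping even-pool regions with a score of at least 5 left 83 unmatched regions, with 68.7% exonic, 24.1% intergenic, a median score of 5, 62.7% in a gene with an odd-pool region (37.6% among all 221) and 11 genes with no odd-pool region, since this drops the 138 members of score 4. Calling a region matched when an odd-pool region lay within 20000 bp left 136. The share in a gene with an odd-pool region was 30.8% when any shared base counted as a match and 44.7% when 75% of both regions had to overlap, because each rule adds or removes members beside odd-pool regions. Repeated sequence covered 11.3% of members, 4.07% with at least 10 copies at the median and 43.9% where any 1 word with at least 2 copies sufficed. Alternatives for the added measures were chosen after seeing the data: CA or TG stretches of at least 15 or 30 bp were in 20.6% and 16.8% of the 131 isolated members (19.8% at 20 bp), runs of probes 2, 4 or 6 of at least 9 or 11 bases in 16.8% and 6.11% (9.92% at 10), and runs of probes 1, 3 or 5 in 10.7% and 0.763% (3.82% at 10). No paired analysis was possible because there is 1 library for each pool, and no replicate could be left out. Which low-scoring members another library would retrieve cannot be told from 1 library, and the scores carry no depth.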

Other observations

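Isolated intergenic members lay 192 to 1474089 bp from the nearest protein-coding gene (median 44610 bp, n = 62), and 2 of the 62 lay within 5000 bp downstream of one. The median of the 18 matched intergenic regions was 121847 bp and that of the 242 odd-pool intergenic regions 17740 bp. In GC content the isolated members had a median of 46%, the matched regions 50.4%, the odd-pool regions 49.6% and the mm9 windows 41.5%. Exonic isolated members had a median of 51.6% (n = 27) and those outside exons 45.6% (n = 104). The highest GC content of any member, 81.5%, was in the first exon of Vps54, a subunit of a vesicle tethering complex, with 39 CpG in 248 bp and a score of 4.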
